A study of Mus musculus with 8 samples.

Results

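Tbc1d5, Epha3 and Sema3d each hold, inside an intron, a replication initiation site (IS) whose density rose several-fold when the replicative helicase subunit MCM6 was depleted in mouse B lymphoma cells lacking RIF1. The 3 genes were chosen by that rise, so its size is given below as a description and not as a test. Every IS overlapping the annotated span of the 3 genes was taken, which gave 58 of the 129937 ISs in the table of MCM6 depletion and 26 of the 39116 ISs in the table of RIF1 loss. In each gene the lead IS was the one with the highest fold change under MCM6 depletion among the denser ISs, meaning those whose density, averaged over both groups, reached the table median. All remaining ISs of a gene are called its other ISs. Density is that of the whole IS unless it is given per kb.

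ISs were mapped by short nascent strand sequencing (SNS-seq), which sequences short leading strands protected from lambda exonuclease by their RNA primer. The cells were CH12, a mouse B cell lymphoma line, cultured with IL4, CD40 and TGF beta stimulation and not synchronised. There were 8 libraries, 2 in each of 4 groups: WT, Rif1KO, and Rif1KO cells infected with a lentivirus whose hairpin targets LacZ, the control (Rif1KO_shLacZ), or Mcm6 (Rif1KO_shMcm6). Both hairpin groups therefore lack RIF1 and were selected with puromycin, the knockout is a clonal derivative of the CH12 line, and replicates came from separately thawed vials. SNS-seq reads DNA, so the labelled cell type could not be checked against marker genes.

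Replication starts from origins that are licensed by loading MCM2-7, the hexameric helicase, of which MCM6 is a subunit. Cells load more MCM complexes than they fire, and the choice among licensed origins varies from cell to cell. RIF1, which brings protein phosphatase 1 to chromatin, is known for setting the order in which parts of the genome replicate. The 3 genes are not known for a role in replication. TBC1D5 is a GTPase-activating protein for RAB7 that binds the retromer coat on endosomes, EPHA3 is a receptor tyrosine kinase for ephrin-A ligands, and SEMA3D is a secreted class 3 semaphorin that guides axons and vessels through neuropilin and plexin receptors.

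The lead ISs were arrays of a purine-rich trinucleotide repeat. The central 300 bases of those in Epha3 and Sema3d are printed here from the mm9 genome sequence, 5′ to 3′ on the plus strand. The repeat is a feature of all 3 that the choice of genes did not name. It is GC-rich, though, and a GC-rich site was part of that choice. Capitals mark runs of at least 4 consecutive units that are GGA or GCA in any mix.
Epha3 lead IS, chr16:63833700-63833999: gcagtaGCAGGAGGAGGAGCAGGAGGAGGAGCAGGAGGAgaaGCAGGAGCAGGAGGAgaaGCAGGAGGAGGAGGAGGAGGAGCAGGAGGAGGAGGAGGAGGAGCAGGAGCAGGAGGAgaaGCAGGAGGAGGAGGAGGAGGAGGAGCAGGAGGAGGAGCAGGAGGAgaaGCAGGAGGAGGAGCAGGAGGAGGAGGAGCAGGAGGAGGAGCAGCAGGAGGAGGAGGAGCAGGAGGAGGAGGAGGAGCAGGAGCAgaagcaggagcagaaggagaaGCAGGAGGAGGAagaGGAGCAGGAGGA
Sema3d lead IS, chr5:12481148-12481447: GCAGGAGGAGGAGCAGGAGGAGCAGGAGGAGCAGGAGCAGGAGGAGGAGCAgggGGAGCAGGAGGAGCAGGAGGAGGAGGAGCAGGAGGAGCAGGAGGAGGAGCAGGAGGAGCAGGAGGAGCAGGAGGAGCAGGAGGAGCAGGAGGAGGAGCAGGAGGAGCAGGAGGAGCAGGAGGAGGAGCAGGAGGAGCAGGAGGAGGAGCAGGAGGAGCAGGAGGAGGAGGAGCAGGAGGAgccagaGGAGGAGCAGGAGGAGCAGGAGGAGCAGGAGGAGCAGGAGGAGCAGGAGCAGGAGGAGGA
In these windows 258 and 291 of 300 bases were capitals. For contrast, the central 120 bases of other ISs of the same genes are printed below. They are the most GC-rich other IS of Epha3, the Tbc1d5 IS with the highest fold change of all, and the other IS of Sema3d with the highest density, and no base in any of them lay in such a run.
Epha3 GC-rich other IS, chr16:63857046-63857165: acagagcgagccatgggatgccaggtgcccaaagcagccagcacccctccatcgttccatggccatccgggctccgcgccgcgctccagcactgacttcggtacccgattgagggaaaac
Tbc1d5 highest other IS, chr17:51225009-51225128: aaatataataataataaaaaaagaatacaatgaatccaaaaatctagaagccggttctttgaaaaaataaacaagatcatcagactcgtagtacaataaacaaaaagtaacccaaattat
Sema3d densest other IS, chr5:12493380-12493499: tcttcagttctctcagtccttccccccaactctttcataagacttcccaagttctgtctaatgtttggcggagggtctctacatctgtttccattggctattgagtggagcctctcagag

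The whole lead IS of Tbc1d5 spanned 1297 bp (chr17:51098712-51100008), and 76.3% of its bases lay in runs of GGA and GCA units, called array bases from here on. In Epha3 the lead IS spanned 936 bp (chr16:63833382-63834317) with 92.6% array bases, and in Sema3d 1062 bp (chr5:12480767-12481828) with 72.3%. GGA made up 72.4% of the 330 units in Tbc1d5, 78.9% of the 289 units in Epha3 and 70.7% of the 256 units in Sema3d, and the rest were GCA. All units read as GGA and GCA on the plus strand, which is the coding strand of Sema3d and the template strand of Tbc1d5 and Epha3. Purines made up 92.6% of the Tbc1d5 lead IS, 92.8% of that of Epha3 and 80.8% of that of Sema3d.

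Array bases were rare elsewhere in the 3 genes. Of the 55 other ISs, 54 held none, and the exception was the IS beside the lead IS of Epha3. When runs were joined across gaps of up to 50 bp, the Tbc1d5 array measured 1118 bp, the Epha3 array 1682 bp and the Sema3d array 876 bp. They ranked 21, 11 and 39 by length among all 67777 such stretches of the mm9 genome. No other stretch in the 3 gene spans was longer than 102 bp, and that one lay just beside the Tbc1d5 lead IS. Over the whole table of MCM6 depletion, 3.99% of ISs held at least 1 run on either strand, and 0.124% (161 ISs) were array bases over at least 25% of their length.

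**Figure D1:**
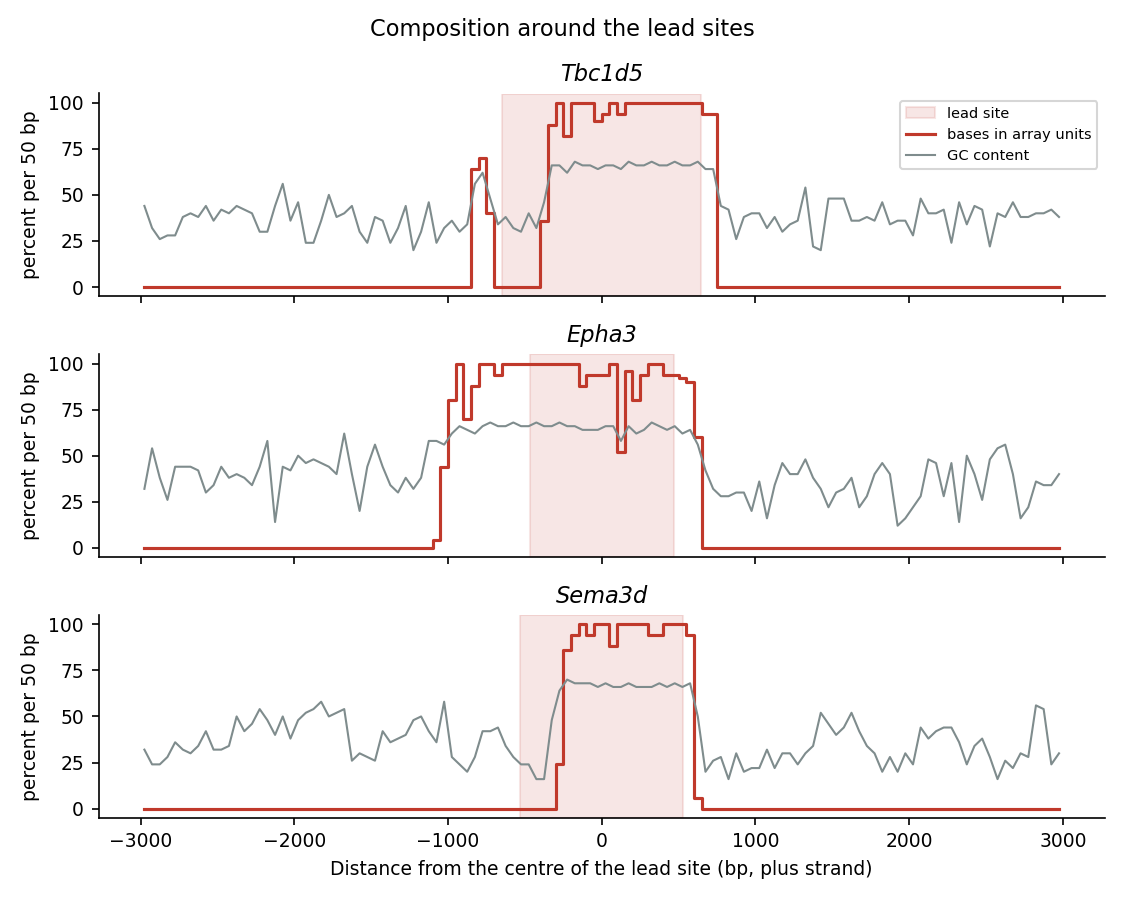
Composition around the lead IS of each gene, in bins of 50 bp on the plus strand. The x axis gives the distance from the centre of the lead IS in bp and the y axis percent of bases. The red line gives array bases, the grey line GC content and the shaded band the lead IS. The array filled most of each band and extended past its right edge. In Epha3 it also extended past the left edge, into the neighbouring IS.

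The lead ISs were GC-rich. Their GC content was 59.2% in Tbc1d5, 65.1% in Epha3 and 57.9% in Sema3d, against medians of 40.2%, 39.8% and 42.8% over the other ISs of these genes and 44.4% over the table. The genes were picked partly for a GC-rich site, so these differences are descriptive. The composition differed from that of a CpG island, which is rich in C as well as G: C made up 7.17%, 6.84% and 10.5% of the bases, and the 3 lead ISs held 1, 0 and 0 CpG dinucleotides. None of them held the canonical G-quadruplex motif, searched as 4 runs of GGG separated by 1 to 7 bases on either strand, whereas 41 of the 55 other ISs and 77.0% of all ISs in the table did.

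The genes were chosen for an intronic site, so the intronic position of the lead ISs is given as a description. In Tbc1d5 (ENSMUSG00000023923.8, chr17:50872452-51318674, minus strand) the lead IS was in intron 8 of the 22-exon longest coding transcript, 219 kb from the 5′ end of the gene. In Epha3 (ENSMUSG00000052504.6, chr16:63543364-63863984, minus strand) it was in intron 2 of a 17-exon transcript, 30.1 kb from the 5′ end. In Sema3d (ENSMUSG00000040254.6, chr5:12383166-12588943, plus strand) it was in intron 3 of an 18-exon transcript, 98.1 kb from the 5′ end. No IS of either table lay within 1 kb of the start of a coding transcript in any of the 3 genes, so no IS at a transcription start could be named. No other annotated gene overlapped a lead IS.

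The tables hold 1 density per group, in log2 RPM (reads per 1000000 reads inside the ISs of the table), with both libraries pooled. There is thus no spread between replicates, and no test across replicates was possible. The pooled reads behind each value were recovered, and intervals in brackets are exact 95% intervals on the ratio of 2 read counts. They compare pooled libraries, not cultures, and cover counting error only, since reads may include PCR copies. Reads inside ISs totalled 21071351 for Rif1KO_shLacZ and 23602750 for Rif1KO_shMcm6.

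At the Tbc1d5 lead IS, 84 pooled Rif1KO_shLacZ reads (3.99 RPM) stood against 484 Rif1KO_shMcm6 reads (20.5 RPM), 5.14-fold higher (4.07 to 6.57-fold). At the Epha3 lead IS the counts were 80 reads (3.80 RPM) and 439 reads (18.6 RPM), 4.90-fold higher (3.85 to 6.30-fold). At the Sema3d lead IS they were 170 reads (8.07 RPM) and 842 reads (35.7 RPM), 4.42-fold higher (3.75 to 5.25-fold). On the log2 scale the differences were 2.36, 2.29 and 2.14, and these ISs ranked 1, 2 and 3 among the denser ISs. With no density limit they ranked 7, 11 and 19 of 129937.

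Per kb of the whole IS, the lead ISs were the thinnest or nearly the thinnest of their genes before MCM6 was depleted. After depletion they were among the densest. Only unique alignments were counted. Of the 50-base windows inside the lead ISs of Tbc1d5, Epha3 and Sema3d, 48.2%, 46.3% and 51.7% occurred once in mm9. In each of their other ISs at least 78.5% did. The part of this difference in the ranks was not tested. Per kb of IS, the Tbc1d5 lead IS had 3.07 RPM in Rif1KO_shLacZ cells, rank 34 of 35 from the top, and 15.8 RPM in Rif1KO_shMcm6 cells, rank 2. The Epha3 lead IS went from 4.06 RPM per kb, the lowest of 16, to 19.9 RPM per kb, the highest. The Sema3d lead IS went from 7.60 RPM per kb, the lowest of 7 by a small margin, to 33.6 RPM per kb, the highest. The other ISs of Sema3d had between 7.67 and 13.5 RPM per kb in Rif1KO_shLacZ cells and between 10.1 and 15.3 in Rif1KO_shMcm6 cells. The Tbc1d5 and Epha3 lead ISs were called in Rif1KO_shMcm6 cells only, and that of Sema3d in both hairpin groups, while none overlapped an IS called in WT or Rif1KO cells.

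**Figure D2:**
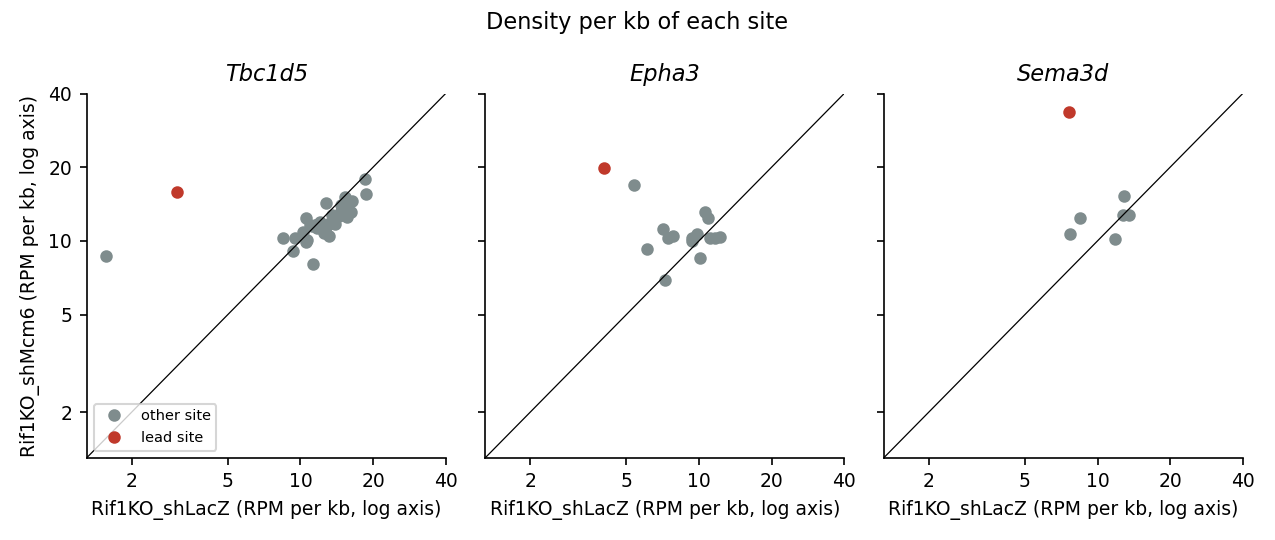
Density of each IS of the 3 genes under MCM6 depletion, in RPM per kb of IS on log axes, with Rif1KO_shLacZ on the x axis and Rif1KO_shMcm6 on the y axis. Each point is 1 IS, with the lead IS in red, and the line marks equal densities. The red points lie at the left of their panels and far above the line.

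The share of a gene's reads that fell in its lead IS followed. Like the ranks above, this share restates the reads that chose the lead ISs and is a description. It went from 1.43% of the 5872 Rif1KO_shLacZ reads in Tbc1d5 ISs to 7.34% of 6591 Rif1KO_shMcm6 reads. In Epha3 it went from 4.39% of 1822 reads to 15.2% of 2880. In Sema3d it went from 18.7% of 911 reads to 47.6% of 1768, the highest share of the 3 genes.

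The other ISs differed between the genes, lying mostly below 0 in Tbc1d5 and mostly above 0 in Epha3 and Sema3d. Over the 34 other ISs of Tbc1d5 the median log2 fold change was -0.08, with 25 below 0 and 9 above. Their pooled reads, 5788 and 6107, gave -0.09 (-0.14 to -0.03) as a ratio of sums over these ISs. In Epha3 the 15 other ISs had a median of 0.13 and in Sema3d the 6 other ISs a median of 0.13, against a table median of -0.01. Over the other ISs called in both hairpin groups the median was 0.01 in Sema3d (3 ISs). In the same setting it was -0.08 in Tbc1d5 (28 ISs) and 0.13 in Epha3 (7 ISs). Pooled reads gave 0.32 (0.23 to 0.41) for Epha3, where the IS beside the lead IS took 96 of 1742 and 336 of 2441 reads, and 0.16 (0.02 to 0.30) for Sema3d. Without that IS, a setting added after seeing the data, the Epha3 value was 0.19 (0.10 to 0.29).

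At least 1.5-fold higher density was found at 7 of the 58 ISs, of which the lead ISs, which the choice of genes fixed, were 3. Across all 129937 ISs 4.80% were at least 1.5-fold higher and 1.51% at least 1.5-fold lower, and none of the 58 was lower by that much. Among the other ISs, 1 of 34 in Tbc1d5, 3 of 15 in Epha3 and 0 of 6 in Sema3d were higher.

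In Epha3 the first of the 3 was the IS 315 bp to the left of the lead IS (chr16:63832224-63833066, 843 bp). Its reads went from 96 to 336, a log2 fold change of 1.64 (1.31 to 1.99), and it ranked 19 among the denser ISs. Its right part is the beginning of the same array, which supplied 24.9% of its bases, and the single stretch of 1682 bp thus runs under both ISs. The remaining 2 held no array bases. An IS in intron 3 (chr16:63656047-63656904, GC 45.0%) went from 128 to 226 reads, a log2 fold change of 0.66 (0.34 to 0.98). The other, in intron 1 at 6.88 kb from the 5′ end of the gene (chr16:63856810-63857402), was as GC-rich as the arrays at 60.5% but of the CpG-containing kind, with an observed over expected CpG ratio of 0.522 against a table median of 0.145. It went from 76 to 130 reads, 0.61 (0.19 to 1.04). Of the 16 ISs of Epha3, 9 were called in Rif1KO_shMcm6 cells only and 7 in both hairpin groups. Called in Rif1KO_shMcm6 cells only were 5 of 35 ISs in Tbc1d5 and 2 of 7 in Sema3d. Over the table the share was 22.9% of ISs without a run.

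The right neighbour of the Epha3 lead IS, 13910 bp away, went from 142 to 181 reads, a log2 fold change of 0.19 (-0.14 to 0.51). The densest other IS of Epha3 (chr16:63740872-63741823) had 212 and 294 reads, 0.31 (0.05 to 0.57), and the lowest (chr16:63650302-63650744) had 94 and 89 reads, -0.24 (-0.68 to 0.19). Counting intervals lay wholly above 0 at 5 of the 15 other ISs of Epha3 and wholly below 0 at none, against 12.6% and 11.3% of ISs in the table.

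Tbc1d5 held a second strong riser without an array. An IS in intron 2 (chr17:51224811-51225326), 93.6 kb from the 5′ end, went from 17 to 106 reads, a log2 fold change of 2.48 (1.73 to 3.31). Its density in Rif1KO_shLacZ cells was 0.807 RPM and it was not among the denser ISs, so it was not the lead IS although its fold change was the higher of the pair. In sequence it was the opposite of the lead IS, with a GC content of 27.1%, the lowest of the gene. Apart from it, the highest other IS of Tbc1d5 had a log2 fold change of 0.28.

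The lead IS of Tbc1d5 was flanked by ISs that went down or did not differ beyond counting error. The right neighbour, 3437 bp away (chr17:51103446-51104038), was the lowest IS of the gene, with 141 and 113 reads and a log2 fold change of -0.48 (-0.85 to -0.12). The left neighbour, 5450 bp away, had 219 and 219 reads, which after scaling was -0.16 (-0.44 to 0.11). The densest IS of the gene in Rif1KO_shLacZ cells (chr17:50951057-50951860) had 316 and 294 reads, -0.27 (-0.50 to -0.03). By the mean of both groups the densest was another (chr17:51006841-51007603), with 297 and 323 reads, -0.04 (-0.27 to 0.19). In Rif1KO_shMcm6 cells the lead IS itself was the densest. Intervals lay wholly below 0 at 5 of the 34 other ISs, and wholly above 0 only at the AT-rich riser, against 11.3% and 12.6% of ISs in the table.

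In Sema3d the IS to the left of the lead IS, 5660 bp away, had 64 and 100 reads, a log2 fold change of 0.48 (0.01 to 0.96). The IS to the right, 2482 bp away, had 95 and 100 reads, -0.09 (-0.51 to 0.33). The densest other IS (chr5:12493048-12493831) had 210 and 237 reads, 0.01 (-0.26 to 0.29). The highest other IS (chr5:12511445-12512023) went from 103 to 170 reads, 0.56 (0.20 to 0.93), just under the 1.5-fold threshold, and the lowest (chr5:12490585-12491002) had 104 and 100 reads, -0.22 (-0.63 to 0.19).

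**Figure D3:**
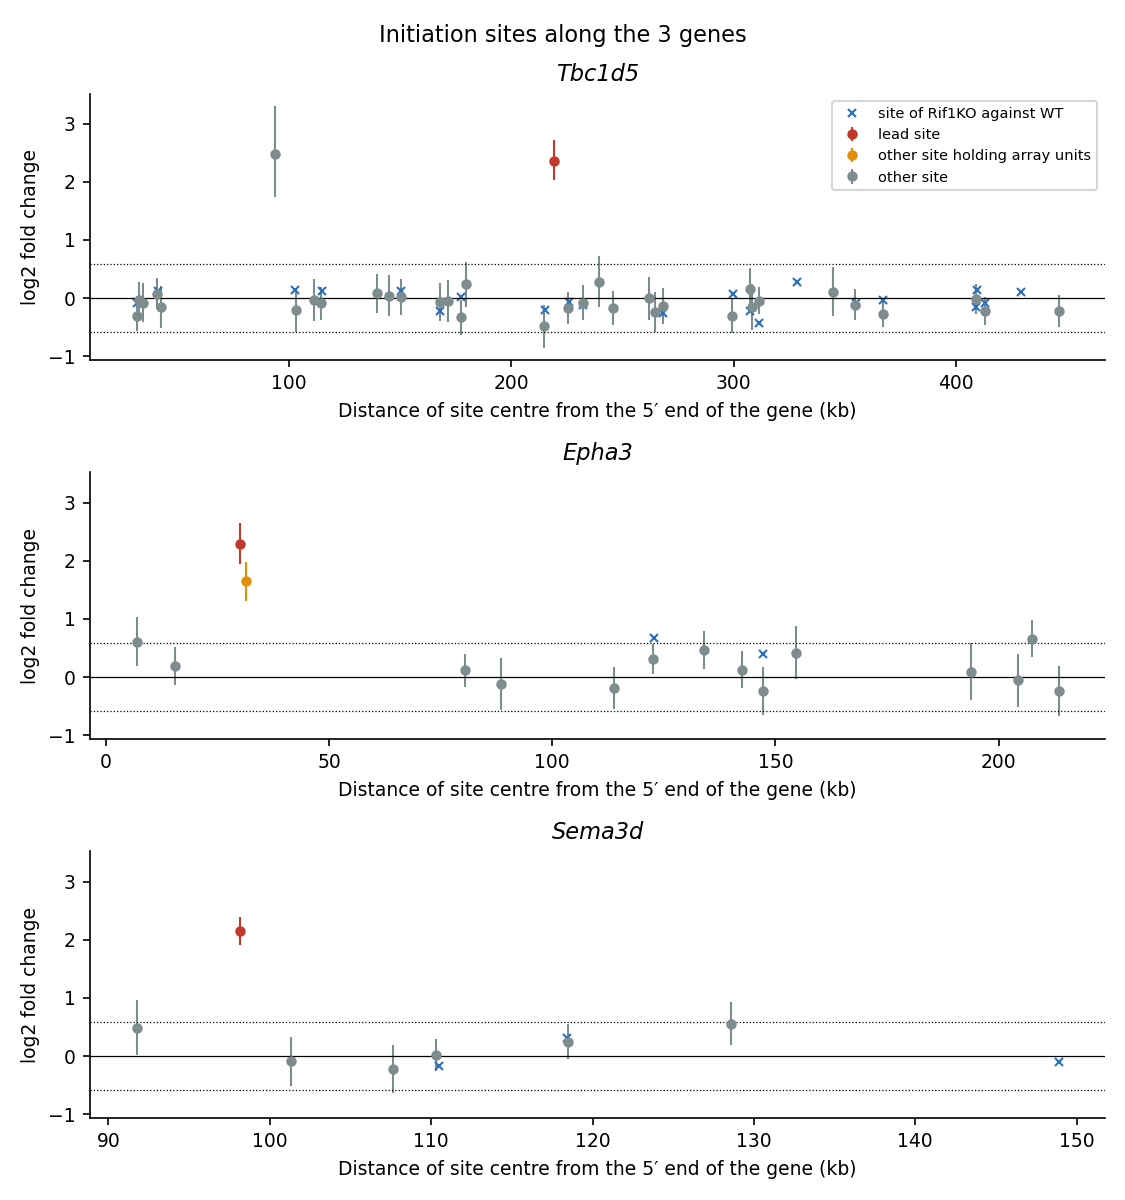
Log2 fold change of every IS of the 3 genes against the distance of its centre from the 5′ end of the gene in kb. Circles are Rif1KO_shMcm6 against Rif1KO_shLacZ, with bars for the exact 95% counting interval, in red for the lead IS, orange for the other IS holding array units and grey for the rest. Blue crosses are ISs of Rif1KO against WT, and dotted lines mark 1.5-fold. The lead ISs stand at 2.36, 2.29 and 2.14 above other ISs that mostly lie between the dotted lines.

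The ISs that followed the lead ISs in rank were mostly of the same kind. Of the next 10 by fold change among the denser ISs, 9 held array bases over at least 25% of their length, with log2 fold changes from 1.78 to 2.07 over all 10. Among these 10, 8 were intergenic. The intronic ones lay in Mgat4c (40.2% array bases, 1.78) and in Dgkb, whose IS held no array bases (GC 45.5%, 77 and 297 reads, 1.78). Just inside the choice stood Sema3d at 2.14 and just outside it an intergenic IS on chromosome 18 at 2.07. Among the first 50 ISs in this ranking 33 were array ISs, among the first 100 there were 50, and among the first 1000 there were 83. The 64974 denser ISs held 47 with 25% to 50% array bases and 53 with 50% or more. Without the density limit 16 of the first 50 and 30 of the first 100 were array ISs. The limit uses both groups, so an IS can pass it through its density in Rif1KO_shMcm6 cells, as the lead ISs of Tbc1d5 and Epha3 did: their control densities were 1.99 and 1.93 on the log2 RPM scale, under the limit of 2.75.

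Array content was therefore examined in all ISs of both tables, although the unit had been read off the lead ISs, so the counts in the table of MCM6 depletion are a description. Of the 161 ISs with at least 25% array bases, called array ISs, 127 (78.9%) were at least 1.5-fold higher after MCM6 depletion and 1 was lower, against 4.80% and 1.51% of all ISs. Without the 3 lead ISs the count was 124 of 158. The median log2 fold change rose with array content. It was -0.01 over the 124752 ISs without a run, 0.05 below 10% array bases, 0.17 from 10% to 25%, 0.92 from 25% to 50%, and 1.47 over the 69 ISs with 50% or more, of which 92.8% were at least 1.5-fold higher.

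GC-rich ISs without the array showed no such shift. Among ISs of at least 55% GC and no array bases, 389 of 8425 (4.62%) were at least 1.5-fold higher and 428 (5.08%) lower, with a median of -0.10. Other simple repeats, found as runs of at least 12 bp on either strand, that covered at least 25% of an IS were less common. GAA runs did so in 50 ISs, of which 23 (46.0%) were higher with a median of 0.52 and a median GC content of 44.5%. GA runs did so in 17 ISs, of which 3 (17.6%) were higher (median 0.20). CA runs did so in 14 ISs, of which 4 (28.6%) were higher (median 0.07). The shares for GAA, GA and CA runs all lay above the 4.80% of all ISs, and 0 of these ISs were at least 1.5-fold lower. By orientation, with GGA on the plus strand 63 of 78 array ISs were higher, and with GGA on the minus strand 64 of 83.

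Array ISs in the table of MCM6 depletion had low densities in Rif1KO_shLacZ cells. Only unique alignments were counted, and the part of that limit in these densities was not tested. Those with 50% or more array bases had a median of 7.81 RPM per kb in Rif1KO_shLacZ cells, against 11.6 for ISs without a run, and 49.3% of them were called in Rif1KO_shMcm6 cells only, against 22.9%. Such ISs are in the table through the group in which they were high. Among ISs called in both hairpin groups the medians were closer, at 9.99 and 12.1 RPM per kb. In the table of RIF1 loss the WT medians were 55.3 RPM per kb for ISs with 25% to 50% array bases and 55.4 for those with 50% or more, against 49.4 for ISs without a run, over the 39 array ISs that were called in WT or Rif1KO cells and not over weaker arrays. Among array ISs called in both hairpin groups, 51 of 67 (76.1%) were at least 1.5-fold higher, against 78.9% of all array ISs. Among ISs without a run called in both hairpin groups, 911 of 82182 (1.11%) were. Array ISs took 0.117% of Rif1KO_shLacZ reads in ISs and 0.256% of Rif1KO_shMcm6 reads.

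**Figure D4:**
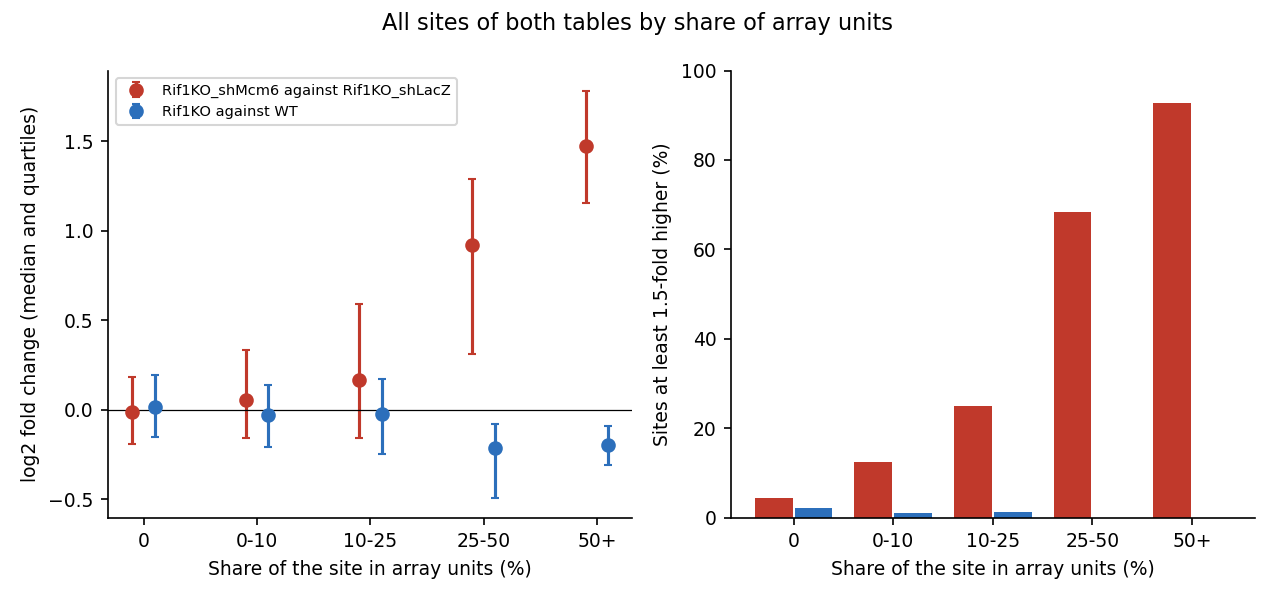
All ISs of both tables grouped by the percent of their bases in array units. The left panel gives the median log2 fold change with quartiles and the right panel the percent of ISs at least 1.5-fold higher, in red for Rif1KO_shMcm6 against Rif1KO_shLacZ and in blue for Rif1KO against WT. The red medians climb from -0.01 to 1.47 and the blue ones fall from 0.02 to -0.20.

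The comparison of Rif1KO with WT cells used other libraries and was not part of the choice of genes. None of the 3 lead ISs overlapped an IS of that table, and the nearest IS lay 3446 bp away in Tbc1d5, 73428 bp in Epha3 and 11637 bp in Sema3d, so the lead ISs have no value there. That table was shallower, with 3350255 WT reads and 3724571 Rif1KO reads inside ISs, and a weak IS could have been missed. Array ISs as a class were counted there too. Of 39 ISs with at least 25% array bases, 0 were at least 1.5-fold higher in Rif1KO cells (exact 95% binomial interval 0 to 9.03%) and 3 were lower, with a median log2 fold change of -0.21 against 0.02 over all ISs. Across all 39116 ISs of that comparison 2.27% were higher and 2.70% lower, so 0 of 39 is near the share over all ISs. GC-rich ISs without array bases (at least 55% GC) also lay below the other ISs there: 34 of 5379 (0.632%) were higher and 362 (6.73%) lower, with a median of -0.12. The 3 lower array ISs lay on chromosome 10, where the median of all ISs was -0.36, and without chromosomes 10, 15 and 16 the median over the 29 remaining array ISs was -0.21, with 5 above 0. Whether the rise after MCM6 depletion and the absence of one after RIF1 loss differ beyond replicate error was not tested, since no table holds replicates.

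Of the array ISs under MCM6 depletion, 28 overlapped an IS of the table of RIF1 loss. Their log2 fold changes after MCM6 depletion ran from -0.07 to 1.48 with a median of 0.97. Of the 28, 21 were at least 1.5-fold higher, against 78.9% of all array ISs and 4.80% of all ISs. The 30 overlaps had values for RIF1 loss from -0.99 to 0.32 with a median of -0.22, against 0.02 over all ISs. Of the 30, 27 were below 0, 3 above 0, 0 at least 1.5-fold higher and 3 at least 1.5-fold lower. Over all ISs 2.27% were higher and 2.70% lower by that much. The 3 lower overlaps lay on chromosome 10, where the median of all ISs was -0.36. The examples given next are near the upper end for MCM6 depletion. In Creg1 the array IS (68.8% array bases) had a log2 fold change of 1.41 after MCM6 depletion, and the IS over it had 84 WT and 80 Rif1KO reads, -0.22 (-0.68 to 0.24). In Arhgap12 (72.1% array bases) the values were 1.47 and, from 106 WT and 95 Rif1KO reads, -0.31 (-0.73 to 0.10). These genes were named after their values had been seen.

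Of the 26 ISs of the 3 genes in the table of Rif1KO against WT, 1 was at least 1.5-fold higher and 0 were lower, near the 2.27% and 2.70% of all ISs. In Tbc1d5 the 21 ISs had log2 fold changes from -0.44 to 0.28 with a median of -0.07, and every counting interval included 0, as did most in the table, where 4.67% lay wholly above 0 and 5.40% wholly below. Sema3d had 3 ISs, at -0.18, 0.32 and -0.10, all with intervals that included 0. Epha3 had 2 ISs, both called in Rif1KO cells only. The one at chr16:63716657-63717001 had 39 WT and 57 Rif1KO reads, 0.39 (-0.22 to 1.02), and the one at chr16:63740874-63741356 had 47 and 83 reads, 0.67 (0.13 to 1.22). Chromosome 16 as a whole stood at a median of 0.33 over 2174 ISs in this table, and 14.4% of its ISs were at least 1.5-fold higher, whereas in the table of MCM6 depletion its median was 0.01. The part of that shift in the Epha3 values was not tested.

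How the 4 lists of called ISs covered the arrays of the genome was counted as well. Of 108 stretches of at least 500 bp in mm9, 20 (18.5%) overlapped an IS called in WT cells, 15 (13.9%) in Rif1KO cells, 43 (39.8%) in Rif1KO_shLacZ cells and 71 (65.7%) in Rif1KO_shMcm6 cells. The lists held 25828, 33600, 100612 and 115766 ISs, and the part of list length in these counts was not tested. Over all 67777 stretches of 12 bp or more the counts were 936, 1058, 3830 and 5456 in the same order, so Rif1KO stood below WT for the long stretches and above it over all. Of stretches of at least 100 bp, 15.9% and 24.5% of 2145 were covered in the hairpin groups.

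How the reads were aligned bears on any repeat. Reads were kept only if they aligned to a unique place. The reads were 50 bases long. Of all 50-base windows inside the lead ISs, 48.2% in Tbc1d5, 46.3% in Epha3 and 51.7% in Sema3d occurred once in mm9, against at least 78.5% in each of the other ISs of the 3 genes. These are exact matches, and reads with mismatches, of which the alignment allowed up to 2, were not modelled. The densities of the lead ISs therefore rest on part of their length. Windows of 75 bases would have been unique at 87.7%, 82.0% and 83.6% of positions. Peaks were called without input, and no measure of DNA content, exonuclease digestion or amplification at the arrays was used here.

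The gene families of the 3 members were counted whole, against the 4.80% of all ISs that were at least 1.5-fold higher and the 1.51% lower. Eph receptors and ephrins (22 genes, 18 with an IS) held 182 ISs, of which 8 (4.40%) were at least 1.5-fold higher and 3 lower, with a median log2 fold change of -0.01. Without Epha3 4 of 166 were higher, and the highest was in Ephb1 at 0.80 (0.35 to 1.26), the lowest in Ephb2 at -0.76 (-1.25 to -0.27). Class 3 semaphorins and their neuropilin and plexin receptors (14 genes, 11 with an IS) held 84 ISs with 4 higher, 2 lower and a median of 0.07. Without Sema3d the highest was in Sema3a at 1.02 (0.72 to 1.32) and the lowest in Sema3f at -0.78 (-1.23 to -0.34). The retromer, RAB7 and their partners (16 genes, 10 with an IS) held 52 ISs, 35 of them in Tbc1d5, with 3 higher, 2 lower and a median of -0.08.

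In that last list the highest IS outside Tbc1d5 was again an array. It lay in Snx2, which encodes a sorting nexin of the retromer pathway, held 59.9% array bases and had a log2 fold change of 0.97 (0.78 to 1.15). The IS over it in the other table had 151 WT and 159 Rif1KO reads, -0.08 (-0.41 to 0.25). The lowest was the promoter IS of Vps26a, a retromer core subunit, at -0.89 (-1.32 to -0.46) with a GC content of 71.0%. An array IS did not always reach the 1.5-fold threshold. Plxna4, named here for that reason, held an IS with at least 25% array bases. None of its 16 ISs was at least 1.5-fold higher. In the table of RIF1 loss, 10 of 59 ISs of the Eph list (the highest in Epha6, at 0.91, which like Epha3 lies on chromosome 16), 0 of 13 of the semaphorin list and 0 of 26 of the retromer list were higher, against 2.27% of all ISs and 14.4% of those on chromosome 16. The 1 lower IS of the lists was the promoter IS of Vps26a, at -0.64 (-1.14 to -0.16).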

How the data were processed

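SNS-seq libraries (8, with 2 biological replicates a group) were sequenced as 50-base single-end reads. Per the methods, the authors trimmed reads with Trim Galore 0.6.4 and cutadapt 2.6 (versions from the submitters' processing notes), aligned them to mm9 with Bowtie 1.2.3 keeping unique alignments, with at most 2 mismatches, called peaks with MACS (input-free), took consensus peaks of the replicates with BedTools and kept those inside clusters. Unique alignment removes reads from repeats, and no correction for DNA content was made here.

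The deposited values are log2 RPM, 1 value per group with both replicates pooled, and a further column holds the authors' category of fold change, which was not used. On the linear scale every value (100%) was, within 0.1 read, a whole number of reads, which gave the pooled reads. Fold changes are treated minus control on the deposited log2 scale, and an IS at least 1.5-fold higher or lower is counted as such, following the study. Intervals are exact (Clopper-Pearson) binomial at 95%. GC content, repeat runs and window copies were computed on mm9 sequence, and genes were taken from GENCODE M1 of that build. Coordinates are 1-based.

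Named ISs were the lead IS, its neighbours, and the highest, lowest and densest IS of each gene, the next 10 ISs in rank, and the genes with the highest and lowest IS of each family list. Also named were the Epha3 ISs at least 1.5-fold higher, those of Epha3 for RIF1 loss, and the highest IS without the density limit. Creg1, Arhgap12 and Plxna4 were named after their values had been seen. The genes, lists and the threshold were chosen with earlier results of these data known, and the repeat unit, its 25% limit and the compared repeats after the sequences had been seen. Scripts ran in Python 3.11.15 and were tested on simulated data. Alternatives were centring, a pseudocount, density limits, ISs called in both groups, other thresholds, an extended gene span and other definitions of the repeat. The sequence of the Tbc1d5 lead IS is not reported here.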

Additional observations from a re-analysis of the deposited data

How the results depend on the processing

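No paired analysis was possible because replicates were pooled to 1 value per group before deposit, and for the same reason no fit without a replicate and no fit with a replicate block was run. The lead ISs have no value for RIF1 loss under any setting. Lead fold changes stayed inside their counting intervals when centred on the table median, with a pseudocount of 1 RPM, and when the highest IS at any density was taken. Restricting to ISs called in both groups left 2 ISs at least 1.5-fold higher after MCM6 depletion in place of 7, a lower threshold (0.32 on the log2 scale) gave 11 higher and 2 lower, and leaving out ISs with array units gave 3 higher ISs and a pooled value of 0.19 for the other ISs of Epha3 in place of 0.32. At or above the lower quartile of density the median of the other Epha3 ISs was 0.25, and in the table of RIF1 loss the single remaining Sema3d IS stood at 0.32. For RIF1 loss the count of higher ISs was 0 among ISs called in both groups and at 2-fold, and 2 with the gene span extended by 50 kb and at the lower threshold, and the count of lower ISs was 1 under the last 2 settings. Over the central 300 bp the GC difference to the other ISs was 28 percentage points in Tbc1d5 and 27.7 in Sema3d, against 19.0 and 15.1 over whole ISs. The settings for array ISs were chosen after seeing the data: the share at least 1.5-fold higher after MCM6 depletion was 92.8% at 50% or more array bases, 35.8% at 10% or more, 58.3% with GGA units only, and 61.5% at a 2-fold threshold. The causes were not tested. For RIF1 loss no setting brought that share above 0.833%. With 17 to 316 control reads per IS, counting error limits single ISs, and replicate error is not known.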

Other observations

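Without the density limit, the highest fold changes after MCM6 depletion came from thin ISs without arrays. Of the first 13 ISs ranked that way 2 held at least 25% array bases, namely the lead ISs of Tbc1d5 and Epha3, and the first of all was an intergenic IS on chromosome 7 with 11 and 90 reads (log2 fold change 2.87, 1.96 to 3.92). Of all 1259 ISs at least 2-fold higher, 99 (7.86%) were array ISs, and of the 241 among the denser ISs, 66 (27.4%). The canonical GGG motif, present in 77.0% of ISs, was found in 16.1% of the 161 array ISs. Of all ISs without that motif 7.36% were at least 1.5-fold higher, against 4.03% of those with it. Among array ISs the share was 79.3% without the motif (135 ISs) and 76.9% with it (26 ISs).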
